A study of Homo sapiens with 9 samples.

Results

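Ligands of the epidermal growth factor (EGF) family and their ERBB receptors were followed across JAG1 knockout clone 2, JAG1 knockout clone 1 and wild-type cells. All are MDA-MB-231-D3H2LN, a human cell line derived from triple-negative MDA-MB-231 breast cancer cells by way of a lymph node metastasis in mice. The set was named by gene symbol and holds 10 of the 56505 genes listed in the count tables: the ligand genes EREG, AREG, BTC, HBEGF, TGFA, EGF and NRG1 and the receptor genes EGFR, ERBB2 and ERBB3. All 10 had enough counts to be among the 16921 genes tested. Each group had 3 libraries of total RNA from cells kept in high-glucose DMEM with serum. Per the labels, Cas9 complexes with guides to separate places of one JAG1 exon were delivered to these cells, and each knockout line is a homozygous clone grown from a single cell, so each clone stands for 1 line. The wild-type cells were the parental population, for which the labels describe no cloning step. JAG1, which encodes a membrane-bound ligand of Notch receptors, averaged 66.9 ± 9.87 CPM (counts scaled to library size with edgeR's TMM factors) in clone 2, 94.5 ± 14.9 CPM in clone 1 and 196 ± 44.7 CPM in wild type (SD, n = 3 each). It was lower in every knockout library than in any wild-type library.

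EGF family ligands are made as membrane-anchored precursors. Metalloproteases of the ADAM family cut them at the cell surface, and the released ligand acts on the same cell or its neighbours. EGFR binds EGF, TGF-alpha and amphiregulin, while betacellulin, epiregulin and HB-EGF bind EGFR and ERBB4, and neuregulins bind ERBB3 and ERBB4. ERBB2 has no known ligand of its own and serves as the favoured dimer partner, and ERBB3 signals through its partners because its own kinase is weak. Triple-negative breast cancer cells often carry abundant EGFR and lack amplified ERBB2.

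Total counts per library ran from 16890890 to 22456164. No label states that replicates were separate cultures. The p-values therefore reflect spread among these libraries alone, which may be technical. Of the line's defining mesenchymal genes VIM, CD44, AXL, MSN and S100A4, 2 (VIM and MSN) were called higher and S100A4 lower in clone 2 than in wild type. S100A4 averaged 37.8 CPM in clone 2, 188 CPM in clone 1 and 204 CPM in wild type (log2 fold change −2.43 in clone 2, adjusted p = 0.00208 by edgeR). The 5 genes summed to 4934 to 6502 CPM in clone 2, 3359 to 4097 CPM in clone 1 and 3379 to 4797 CPM in wild type. The 5 blood markers summed to 0.186 to 0.436 CPM in clone 2, 1.19 to 1.76 CPM in clone 1 and 1.70 to 4.53 CPM in wild type, and CD3E and HBB were at 0 counts in all 9 libraries. The markers expected to be low (ESR1, PGR, CDH1, EPCAM and KRT5) summed to 12.9 to 14.7 CPM in clone 2, 24.1 to 26.7 CPM in clone 1 and 18.7 to 20.9 CPM in wild type. The part of these marker differences in the ligand results was not tested. Mitochondrially encoded genes took 0.950, 1.94 and 1.11% of counts in clone 2 replicates 1, 2 and 3, 2.48, 3.90 and 5.30% in clone 1, and 2.70, 3.95 and 1.80% in wild type. Clone 2 therefore had the lowest shares, with replicate 2 of clone 2 slightly above replicate 3 of wild type.

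Of the 7 ligand genes, 4 were called lower in clone 2 than in wild type, where 2.75% of all tested genes were. Of these, 3 (EREG, AREG and BTC) lie in 1 cluster on the long arm of chromosome 4. The other gene, EGF, lies farther along the same arm. The calls of AREG, BTC and EGF were each lost without some single library. With the mitochondrial share added to the fit, 0 of the 10 members kept a clone 2 call. Clone 2 had the lowest shares, so that fit separates share from clone poorly. HBEGF, the most abundant ligand transcript, went the other way and was higher in every clone library than in any wild-type library. Such a gap was seen for 14.2% of all tested genes in clone 2 and 13.1% in clone 1. HBEGF was called in clone 1 but not in clone 2 (adjusted p = 0.0551 by edgeR). None of the 3 receptors passed the edgeR test in any comparison.

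The promoters shown are those of the members called in a clone against wild type. EREG, AREG, BTC and EGF were low together in clone 2 while HBEGF was not. Each line is the 250 bases before the transcription start in RefSeq (GRCh38.p14), 5′ to 3′ on the gene's own strand. They come from chr4:74364895-74365144 on the plus strand for EREG, chr4:74444886-74445135 on the plus strand for AREG, chr4:74794524-74794773 on the minus strand for BTC, chr4:109912633-109912882 on the plus strand for EGF and chr5:140346604-140346853 on the minus strand for HBEGF. RefSeq starts can differ from those of the counted genes. Much of the BTC window lies inside the counted BTC span, which ends at chr4:74794686. The HBEGF window also overlaps its counted span, which ends at chr5:140346631. Capitals mark matches, on either strand, to the AP-1 motif TGANTCA, the cyclic AMP response element core TGACG, the RBPJ motif TGGGAA, which is bound by the DNA-binding partner of Notch, or the TEAD motif GGAATG.
EREG: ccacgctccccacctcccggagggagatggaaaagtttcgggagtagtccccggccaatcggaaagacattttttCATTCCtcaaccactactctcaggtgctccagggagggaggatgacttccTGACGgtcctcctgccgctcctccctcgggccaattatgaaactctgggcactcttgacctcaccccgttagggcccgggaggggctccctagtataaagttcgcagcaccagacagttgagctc
AREG: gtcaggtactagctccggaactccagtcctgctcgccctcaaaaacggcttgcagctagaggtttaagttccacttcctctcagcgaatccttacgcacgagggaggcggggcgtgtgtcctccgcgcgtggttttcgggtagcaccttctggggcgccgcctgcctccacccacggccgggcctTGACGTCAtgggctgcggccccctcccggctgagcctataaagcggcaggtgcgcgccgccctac
BTC: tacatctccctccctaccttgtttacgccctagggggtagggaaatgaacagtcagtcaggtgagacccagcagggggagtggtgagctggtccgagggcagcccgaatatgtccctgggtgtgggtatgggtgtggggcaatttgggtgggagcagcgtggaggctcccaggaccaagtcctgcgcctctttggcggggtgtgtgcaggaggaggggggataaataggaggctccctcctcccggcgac
EGF: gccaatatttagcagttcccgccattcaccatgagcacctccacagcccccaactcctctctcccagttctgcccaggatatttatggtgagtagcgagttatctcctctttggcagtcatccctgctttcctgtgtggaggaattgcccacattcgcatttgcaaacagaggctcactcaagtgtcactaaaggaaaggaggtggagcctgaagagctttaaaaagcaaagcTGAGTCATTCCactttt
HBEGF: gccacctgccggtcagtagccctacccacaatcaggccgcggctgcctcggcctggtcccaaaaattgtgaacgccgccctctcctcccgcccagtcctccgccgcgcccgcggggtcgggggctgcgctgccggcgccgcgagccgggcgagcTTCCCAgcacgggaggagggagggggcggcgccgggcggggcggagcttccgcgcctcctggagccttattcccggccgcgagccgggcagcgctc

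AREG held a full cyclic AMP response element, TGACGTCA, 65 bases before the start, which matches the core on both strands. That element was present in 1.77% of 27305 promoters of the same length, and the core in 21.7%. EREG held the core at 125 bases and the TEAD motif at 175 bases before the start, and 11.9% of promoters hold the TEAD motif. EGF held an AP-1 motif 17 bases before the start, overlapping a TEAD motif, and 6.60% of promoters hold an AP-1 motif. HBEGF held an RBPJ motif 96 bases before the start, as do 21.1% of promoters. BTC had no match to these letters in its window. TGFA, whose clone 2 difference from wild type missed the threshold, held the core 154 bases before its start, and its promoter is not printed. The matches describe the letters only, and EREG, AREG, BTC and EGF shared no single motif among those searched.

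EREG encodes epiregulin. Its gene spans chr4:74365143-74388751 on the plus strand (GRCh38, as are all gene positions here). Its level was 21.7, 19.5 and 12.8 CPM in clone 2 replicates 1, 2 and 3, against 45.1, 68.8 and 45.1 CPM in wild type. The highest clone 2 library was below the lowest wild-type library. By edgeR's quasi-likelihood test, with Benjamini-Hochberg adjustment over all tested genes and a two-sided threshold of 0.05, EREG fell in clone 2 (log2 fold change −1.56, SE 0.22, adjusted p = 0.000678). Every one of the 9 leave-one-out fits kept this call, at adjusted p no higher than 0.00196.

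AREG encodes amphiregulin and lies beyond EREG (chr4:74445134-74455009, plus strand). Its level was 7.18, 4.31 and 3.37 CPM in clone 2, against 14.0, 23.3 and 9.91 CPM in wild type. The groups did not overlap, but wild type varied widely. AREG fell in clone 2 by edgeR (log2 fold change −1.68, SE 0.33, adjusted p = 0.0105). Omitting clone 2 replicate 3 ended the call (adjusted p = 0.0604).

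BTC encodes betacellulin and lies beyond AREG on the other strand (chr4:74744759-74794686, minus strand). It was a scarce transcript, with raw counts of 11, 21 and 3 in clone 2 and 41, 88 and 34 in wild type. These were 0.680, 1.02 and 0.142 CPM in clone 2, against 1.99, 3.72 and 1.71 CPM in wild type, with no overlap. BTC fell in clone 2 by edgeR (log2 fold change −2.01, SE 0.56, adjusted p = 0.0442). It passed in 2 of 9 leave-one-out fits (highest adjusted p 0.206) and was lost in a fit of the 6 libraries compared (adjusted p = 0.0938).

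EGF encodes the family's founding ligand and lies farther along chromosome 4 (chr4:109912884-110012266, plus strand). Its raw counts were 25, 24 and 23 in clone 2, against 51, 114 and 98 in wild type. The level was 1.55, 1.16 and 1.09 CPM in clone 2, against 2.48, 4.82 and 4.93 CPM in wild type, again with no overlap. EGF fell in clone 2 by edgeR (log2 fold change −1.69, SE 0.36, adjusted p = 0.0133). Its call was lost without clone 2 replicate 3 or wild-type replicate 2 (adjusted p = 0.0688 and 0.0624).

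**Figure D1:**
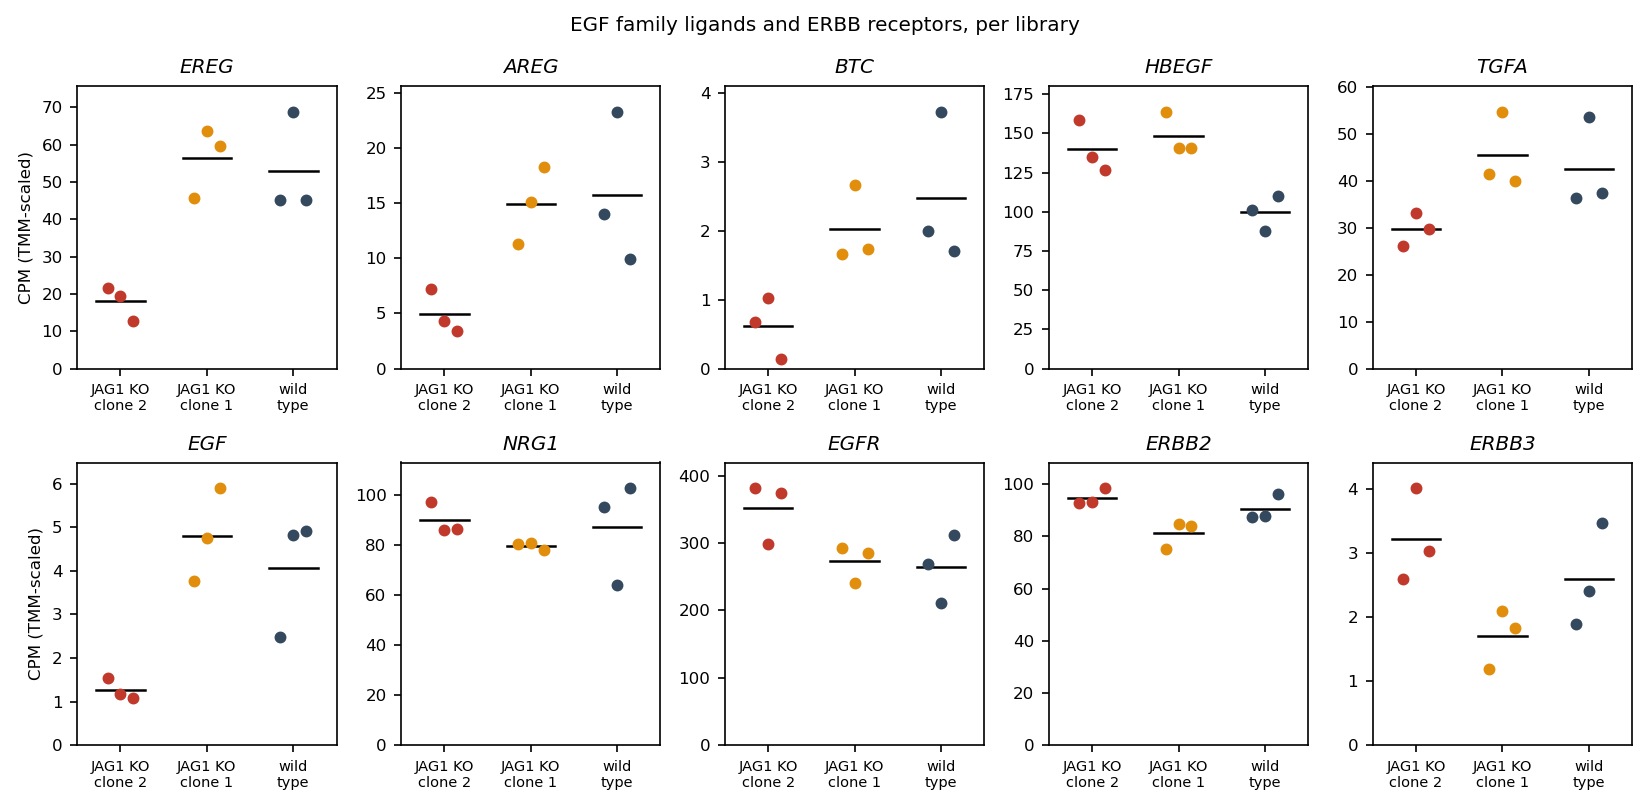
Level of each gene in CPM on a linear axis from 0, with 1 point per library (replicates 1 to 3 from left to right in each group) and a bar at the group mean. EREG, AREG, BTC and EGF have every clone 2 point below every wild-type and clone 1 point, and HBEGF has every clone point above every wild-type point.

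In clone 2, then, 4 of 10 members were called lower and 0 higher than in wild type, where 2.75% of all tested genes were called lower and 3.21% higher (5.96% in either direction). The members were chosen with earlier results of these data known, so setting them beside all genes is a description and not a test. At an unadjusted p under 0.05, 5 members were lower and 2 higher in edgeR, and DESeq2 and limma-voom each called 4 lower and 1 higher. Of all 16921 tested genes DESeq2 called 893 lower and 925 higher, and limma-voom 434 lower and 617 higher. No share of all genes is given here at the unadjusted threshold, in this comparison or the others. Libraries did not overlap for 5 members on the lower side and 1 on the higher side, where 11.7 and 14.2% of all tested genes did so (25.9% in either direction). The members' median log2 fold change was −0.24, against 0.00 for all tested genes. In bulk RNA, fewer cells with a transcript and less of it per cell cannot be told apart.

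TGFA encodes transforming growth factor alpha, a ligand of EGFR (chr2:70447280-70554193, minus strand). Its level was 26.0, 33.1 and 29.8 CPM in clone 2, against 36.3, 53.7 and 37.4 CPM in wild type. The groups did not overlap, but the difference missed the threshold over all genes (log2 fold change −0.52, SE 0.18, adjusted p = 0.0937 by edgeR). With the replicate number as a block over all 9 libraries, it passed (log2 fold change −0.50, adjusted p = 0.0122), as it did without a filter on low counts (−0.55, adjusted p = 0.0260). The labels state no such pairing, and only correlations in these same data hint at it.

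HBEGF encodes heparin-binding EGF-like growth factor, which also serves as the diphtheria toxin receptor (chr5:140332843-140346631, minus strand). Its level was 158, 135 and 126 CPM in clone 2 and 164, 141 and 141 CPM in clone 1, against 101, 87.8 and 110 CPM in wild type. All 6 clone libraries were above the highest wild-type library. HBEGF rose in clone 1 by edgeR (log2 fold change 0.57, SE 0.14, adjusted p = 0.0300). In clone 2 the difference was 0.49 (SE 0.14) with an adjusted p of 0.0551, and of 0.0125 with the replicate block. The clone 1 call was lost without any 1 clone 1 library or without wild-type replicate 1 or 2 (highest adjusted p 0.119). The comparisons of the clones with wild type share the wild-type libraries, so their values for HBEGF are not independent of each other.

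NRG1 encodes neuregulin 1, a ligand of ERBB3 and ERBB4. Its level was 97.3, 86.1 and 86.6 CPM in clone 2 and 80.3, 81.0 and 78.2 CPM in clone 1, against 95.1, 64.1 and 103 CPM in wild type. The wild-type range covered every clone library. The log2 fold change was 0.04 (SE 0.16, adjusted p = 0.899) in clone 2 and −0.13 (SE 0.16, adjusted p = 0.675) in clone 1, with no call by edgeR.

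Clone 1 left the chromosome 4 ligands near their wild-type levels. EREG had 45.8, 63.6 and 59.8 CPM in clone 1, AREG 11.3, 15.1 and 18.3 CPM, BTC 1.66, 2.66 and 1.73 CPM, and EGF 3.78, 4.75 and 5.90 CPM. All 4 overlapped the wild-type range. Their log2 fold changes against wild type were 0.09 (SE 0.21) for EREG, −0.08 (SE 0.31) for AREG, −0.30 (SE 0.51) for BTC and 0.24 (SE 0.33) for EGF, with adjusted p of 0.712 or more by edgeR. TGFA, at 41.5, 54.8 and 40.0 CPM in clone 1, had 0.10 (SE 0.18, adjusted p = 0.786). In total, 1 of 10 members was called higher and 0 lower in clone 1, where 1.41% of all tested genes were called higher and 4.10% lower (5.51% in either direction). At an unadjusted p under 0.05 the counts were the same, 1 higher and 0 lower, as they were by DESeq2 and limma-voom. Of all tested genes DESeq2 called 518 higher and 961 lower in clone 1, and limma-voom 279 higher and 666 lower. HBEGF on the higher side and ERBB2 on the lower had libraries that did not overlap, as had 13.1 and 16.5% of all tested genes (29.6% in either direction).

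The difference between the clones was tested directly. Against clone 1, clone 2 had less EREG (log2 difference −1.65, SE 0.22, adjusted p = 9.04e-05), less EGF (−1.93, SE 0.36, adjusted p = 0.000910) and less AREG (−1.60, SE 0.33, adjusted p = 0.00218) by edgeR. TGFA (−0.61, SE 0.18, adjusted p = 0.0154) and BTC (−1.72, SE 0.56, adjusted p = 0.0273) were lower as well. For each of these 5 genes all 3 clone 2 libraries lay below all 3 clone 1 libraries. The calls of EREG, AREG and EGF held without any 1 library, while TGFA lost its call without clone 1 replicate 2 (adjusted p = 0.0803) and BTC without that library or clone 2 replicate 3 (highest adjusted p 0.0961). The count of 5 lower members and 0 higher has a wide background, since 14.1% of all tested genes were lower and 19.8% higher between the clones (33.9% in either direction). At an unadjusted p under 0.05, 2 members were higher, and DESeq2 and limma-voom called 0 higher. Of all tested genes DESeq2 called 3299 higher and 3032 lower between the clones, and limma-voom 3350 higher and 2509 lower. Libraries did not overlap for 5 members on the lower side and 4 (NRG1, EGFR, ERBB2 and ERBB3) on the higher side, as for 21.6 and 25.8% of all tested genes (47.4% in either direction). HBEGF had a log2 difference of −0.09 (SE 0.14, adjusted p = 0.673) between the clones, with overlapping libraries.

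**Figure D2:**
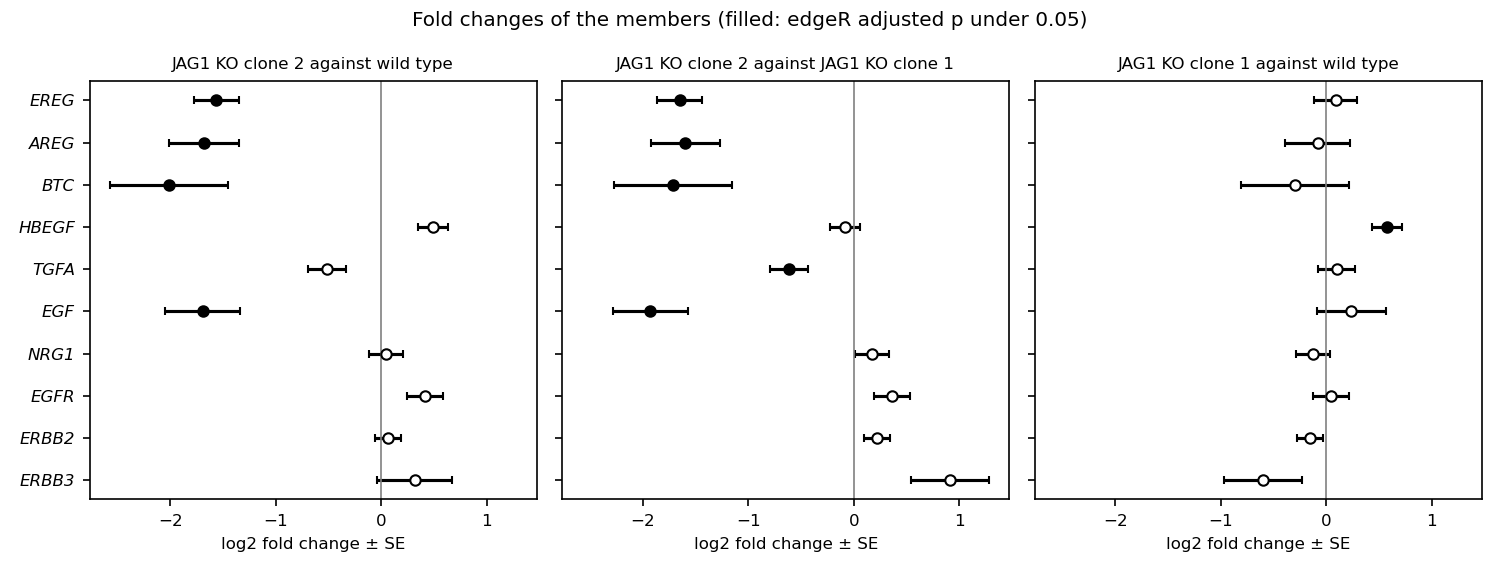
Log2 fold change of each gene with its standard error in the 3 comparisons, from the edgeR fit of all 9 libraries (filled points have an adjusted p under 0.05). EREG, AREG, BTC and EGF are filled and negative in both panels that involve clone 2, at −1.56 to −2.01 against wild type and −1.60 to −1.93 against clone 1, and HBEGF is the only filled point in the panel of clone 1 against wild type.

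EREG, AREG, BTC, TGFA, EGF and the mitochondrial share were all lowest on average in clone 2. AREG rose with the share over all 3 wild-type libraries (9.91, 14.0 and 23.3 CPM at 1.80, 2.70 and 3.95%). In clone 1, AREG (11.3, 15.1 and 18.3 CPM) and EGF (3.78, 4.75 and 5.90 CPM) rose with it too, at 2.48, 3.90 and 5.30%. In clone 2, AREG and EREG were highest in the library with the lowest share (7.18 and 21.7 CPM at 0.950%), and EGF in wild type was highest in the library with the lowest share (4.93 CPM at 1.80%). These orders rest on 3 libraries a group, and the share as a cause was not tested. With the log2 mitochondrial share as a covariate, an alternative chosen after the data were seen, 0 of 10 members kept a clone 2 call against wild type, and 83 of all tested genes were called, against 1008 without it. EREG then had a log2 fold change of −1.18 (adjusted p = 0.0860 by edgeR), AREG −1.06 (0.410), BTC −1.20 (0.568) and EGF −1.57 (0.226). Clone 2 had the lowest shares, so share and clone are poorly separated in this fit, and a lost call does not tell them apart. EREG passed when the covariate was fitted together with the replicate block (−1.31, adjusted p = 0.0133), and HBEGF kept its clone 1 call with the covariate (0.68, adjusted p = 0.0107). Clone 2 replicate 2 and wild-type replicate 3 had similar mitochondrial shares of 1.94 and 1.80%. EREG was at 19.5 CPM in that clone 2 library and 45.1 CPM in that wild-type library, AREG at 4.31 and 9.91 CPM, and EGF at 1.16 and 4.93 CPM. BTC was at 1.02 and 1.71 CPM and TGFA at 33.1 and 37.4 CPM, a narrower gap for TGFA. This sets 1 library against 1 and carries no test.

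**Figure D3:**
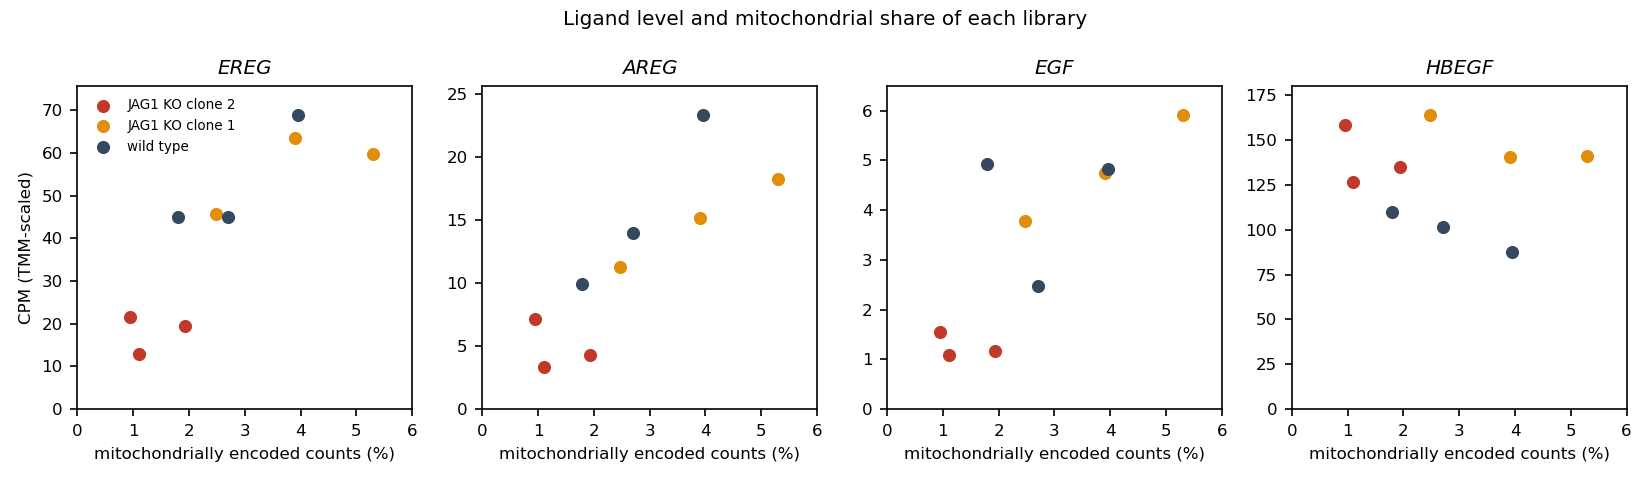
Level in CPM (linear axis from 0) against the percentage of counts from mitochondrially encoded genes, with 1 point per library. Clone 2 points sit at 0.950 to 1.94% on the mitochondrial axis and lowest on the EREG, AREG and EGF axes, while HBEGF in wild type is below every clone point.

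None of the receptor genes was called. EGFR (chr7:55019021-55211628, plus strand) had 382, 299 and 374 CPM in clone 2 and 294, 240 and 285 CPM in clone 1, against 269, 211 and 313 CPM in wild type. Clone 2 overlapped wild type at 1 library but lay above all of clone 1. The log2 fold change in clone 2 was 0.41 (SE 0.17, adjusted p = 0.153 by edgeR), which passed with the replicate block (0.42, adjusted p = 0.0375) but not when a GC and length correction was added to the block (0.28, adjusted p = 0.127). In clone 1 it was 0.05 (SE 0.17, adjusted p = 0.903).

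ERBB2 (chr17:39687914-39730426, plus strand) had 92.7, 93.1 and 98.5 CPM in clone 2 and 75.3, 84.6 and 83.8 CPM in clone 1, against 87.5, 87.8 and 96.1 CPM in wild type. All clone 1 libraries were below all wild-type libraries, by a margin that missed the threshold (log2 fold change −0.16, SE 0.12, adjusted p = 0.492 by edgeR). Clone 2 had a log2 fold change of 0.07 (SE 0.12, adjusted p = 0.788). The opposite-strand genes MIEN1 and PGAP3 overlap the ERBB2 span and had 5863 and 1533 counts over the 9 libraries, and without a stated strand setting their reads at shared positions cannot be told apart.

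ERBB3 (chr12:56079857-56103505, plus strand) was scarce, at 2.60, 4.02 and 3.04 CPM in clone 2 and 1.19, 2.09 and 1.84 CPM in clone 1, against 1.89, 2.41 and 3.47 CPM in wild type. Clone 2 was above clone 1 in all libraries, with a log2 difference of 0.91 (SE 0.37, adjusted p = 0.0666 by edgeR). The last receptor of the family, ERBB4, had 2, 0 and 3 counts over the libraries of clone 2, clone 1 and wild type, and was not tested. Of the remaining ligand genes, EPGN (12, 14 and 13 counts), NRG4 (6, 17 and 8) and NRG3 (0 in every library) were not tested either. NRG2 (61, 108 and 104 counts) was tested without a call (log2 fold change −0.62 in clone 2, SE 0.48, adjusted p = 0.455).

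Levels were set against each other per length, in TPM (transcripts scaled by length and library) computed from the counts and the deposited exon length. That length covers the exons of all isoforms, so genes with many isoforms can be understated. In wild type the order of ligands was HBEGF (119 ± 15.1 TPM), AREG (34.2 ± 14.6), EREG (33.4 ± 8.41), TGFA (30.8 ± 6.88), NRG1 (27.8 ± 6.82), BTC (3.16 ± 1.37) and EGF (2.40 ± 0.846; mean ± SD of TPM, n = 3). The neighbours from AREG to NRG1 did not differ beyond their spread, nor did BTC and EGF. In clone 2 the order was HBEGF (161 ± 5.44 TPM), NRG1 (27.7 ± 0.751), TGFA (21.1 ± 4.20), EREG (10.9 ± 2.28), AREG (10.3 ± 3.07), BTC (0.757 ± 0.571) and EGF (0.715 ± 0.0667). NRG1 lay above TGFA, and TGFA above EREG, in all 3 clone 2 libraries, while EREG and AREG overlapped, as did BTC and EGF. In clone 1 HBEGF had 171 ± 19.0 TPM, EREG, TGFA, AREG and NRG1 lay between 24.5 and 34.2 TPM on average, and EGF and BTC had 2.72 ± 0.518 and 2.49 ± 0.738 TPM.

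HBEGF made up 70.0, 68.2 and 69.8% of the summed TPM of the 7 ligands in clone 2, and 63.3, 53.7 and 55.1% in clone 1, against 50.3, 39.4 and 53.3% in wild type. Every clone 2 library was above every clone 1 library, and every clone 1 library above every wild-type library. EREG took 4.66 ± 0.807% in clone 2, 11.5 ± 1.88% in clone 1 and 13.2 ± 2.67% in wild type, and the summed TPM was 233 ± 9.70, 298 ± 12.8 and 251 ± 13.8 in those groups (SD, n = 3 each). The shares add up to a fixed total, so a lower EREG raises the share of HBEGF without any change in HBEGF itself. Of the summed receptor TPM, EGFR took 74.4 ± 2.61% in clone 2, 72.9 ± 3.25% in clone 1 and 69.6 ± 3.38% in wild type (SD, n = 3 each).

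**Figure D4:**
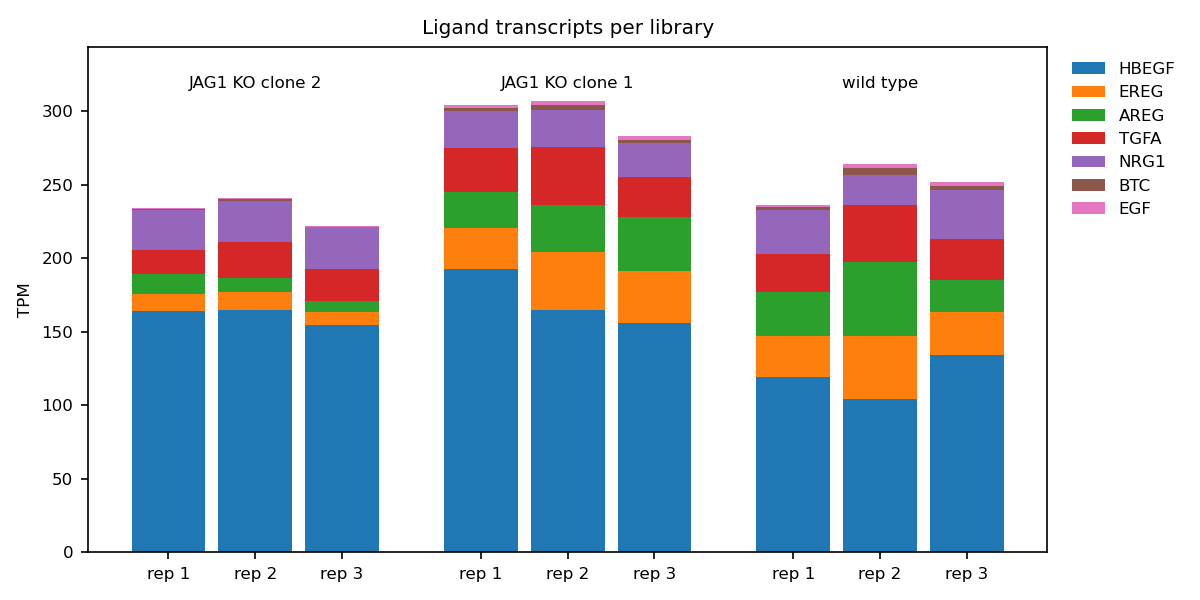
Stacked TPM of the 7 ligand genes in each library, grouped by clone 2, clone 1 and wild type. HBEGF is the tallest segment in all 9 libraries, at 155 to 165 TPM in clone 2, 156 to 192 TPM in clone 1 and 104 to 134 TPM in wild type, and the EREG and AREG segments are thinnest in clone 2.

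EREG, AREG and BTC were compared with the genes around them. Within 1 Mb of the span from EPGN to BTC (chr4:73308473-75794686), 51 genes were listed and 19 tested, of which 16 were not members. In clone 2 against wild type, 1 of these 16 was called by edgeR, where 5.96% of all tested genes were called in either direction. The median log2 fold change of the 16 was −0.37. The 1 called, MTHFD2L, which encodes a mitochondrial folate enzyme, fell by 0.59 on the log2 scale (adjusted p = 0.0429). CXCL8, which encodes interleukin 8, had −0.80 (adjusted p = 0.199), CXCL1, another neutrophil chemokine gene, had −1.06 (0.0733), and PARM1, the nearest tested gene beyond BTC, had 0.08 (0.867), with no call. In clone 1 MTHFD2L was the 1 neighbour called, and it rose (0.60, adjusted p = 0.0396), where 5.51% of all tested genes were called. Between the clones 1 neighbour was higher and 1 lower in clone 2 (median −0.38), where 19.8 and 14.1% of all tested genes were. Over the whole long arm, 50 of 420 tested genes were called lower and 4 higher in clone 2 against wild type, with a median of −0.28, where 2.75% of all tested genes were lower and 3.21% higher. In clone 1, 32 were lower and 12 higher, with a median of −0.09, where 4.10 and 1.41% of all tested genes were. Between the clones 91 were lower and 51 higher in clone 2, with a median of −0.24, where 14.1 and 19.8% of all tested genes were. These long-arm counts include EREG, AREG, BTC and EGF.

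**Figure D5:**
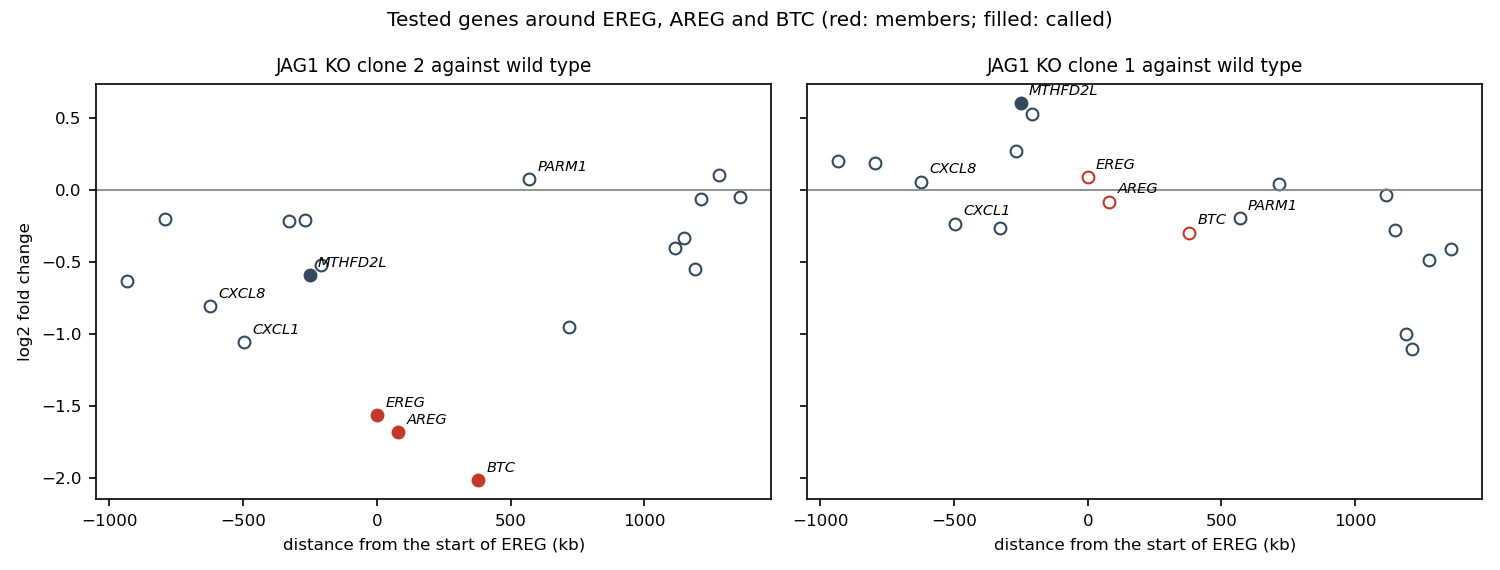
Log2 fold change of the 19 tested genes within 1 Mb of the EPGN to BTC span, by distance of each gene's start from that of EREG in kb. In the clone 2 panel EREG, AREG and BTC are the lowest points, at −1.56, −1.68 and −2.01, and in the clone 1 panel they lie between −0.30 and 0.09.

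Other genes of the pathway were read from lists of general knowledge, by counts. With the replicate block, 1528 of all 16921 tested genes rose and 1171 fell in clone 2 against wild type. In clone 1, 751 rose and 1571 fell with the block. Between the clones 3987 were higher in clone 2 and 3114 lower with it. These, and the all-gene counts of DESeq2 and limma-voom given above, are the background of the list counts below. Of 14 tested genes for ligand shedding and transport, 2 fell in clone 2 and 0 rose against wild type, where 2.75% of all genes fell (list median −0.07). ADAM8, a metalloprotease, averaged 82.3 CPM in clone 2 and 174 CPM in wild type (log2 fold change −1.08, SE 0.15, adjusted p = 0.000706), and its call held without any 1 library and with the mitochondrial covariate (adjusted p = 0.0394). ADAM12 was scarcer, at 1.57 CPM in clone 2 and 4.22 CPM in wild type (log2 fold change −1.44, SE 0.40, adjusted p = 0.0456), and was called in 4 of 9 leave-one-out fits and not with the covariate (adjusted p = 0.170). With the replicate block 4 of the 14 fell and 0 rose in clone 2, and 3 fell and 2 rose in clone 1. Between the clones 3 were higher in clone 2 and 4 lower with the block. ADAM17, the main sheddase of EREG, AREG, TGFA and HBEGF, had −0.40 in clone 2 (adjusted p = 0.0693) and −0.08 in clone 1 (adjusted p = 0.762). In clone 1, 0 of 14 were called by edgeR, with 2 higher and 2 lower at an unadjusted p under 0.05, 1 higher and 1 lower by DESeq2 and 0 by limma-voom. Between the clones 1 of 14 was higher in clone 2 and 2 lower by edgeR, where 19.8 and 14.1% of all genes were.

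Of 18 tested adaptors and effectors that carry the receptors' signal, 5 fell and 0 rose in clone 1 against wild type (list median −0.32), where 4.10% of all genes fell. SRC, a tyrosine kinase, had a log2 fold change of −0.74 (adjusted p = 0.00661), SHC1, an adaptor, −0.60 (adjusted p = 0.0157), and GAB1, a docking protein, −0.81 (adjusted p = 0.0425). In the 9 leave-one-out fits SRC was called in 8, SHC1 in 4 and GAB1 in 2. At an unadjusted p under 0.05, 1 adaptor was higher in clone 1, as in DESeq2, with 0 in limma-voom. In clone 2, 2 of 18 rose and 0 fell against wild type (list median 0.21), PTPN11, the phosphatase SHP2 (0.70, adjusted p = 0.0368), and PIK3R1, a regulatory subunit of phosphoinositide 3-kinase (0.73, adjusted p = 0.0392), called in 4 and 3 of 9 such fits. With the replicate block 4 of 18 rose and 0 fell in clone 2, and 1 rose and 8 fell in clone 1. Between the clones 14 were higher in clone 2 and 1 lower with the block. None of the 18 was lower in clone 2 at an unadjusted p under 0.05 (edgeR), in DESeq2 or in limma-voom. Between the clones, 11 of 18 were higher in clone 2 and 0 lower by edgeR (list median 0.62), where 19.8% of all genes were higher. On the lower side 1 adaptor had an unadjusted p under 0.05, with 1 in DESeq2 and 0 in limma-voom. With the mitochondrial covariate PTPN11 and PIK3R1 had adjusted p of 0.483 and 0.466 against wild type, and of the 5 clone 1 calls SRC and SHC1 kept theirs (0.0107 and 0.0115) while GAB1, the transcription factor gene STAT3 and VAV2 did not (0.0610, 0.0805 and 0.0893). Between the clones 1 of the 11 calls passed with the covariate, that of PLCG1, a phospholipase C gene (adjusted p = 0.0375), against 0.133 for PTPN11.

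Genes that restrain or internalise the receptors were split. Of 20 tested, 1 fell and 2 rose in clone 2 against wild type (list median 0.11), where 2.75% of all genes fell and 3.21% rose. In clone 1, 3 fell and 0 rose (list median −0.11), where 4.10% fell and 1.41% rose. With the replicate block 4 rose and 1 fell in clone 2, and 0 rose and 4 fell in clone 1. Between the clones 7 were higher in clone 2 and 2 lower with the block. In clone 1, 1 was higher at an unadjusted p under 0.05, with 0 in DESeq2 and limma-voom. Between the clones 6 of 20 were higher in clone 2 and 1 lower by edgeR, where 19.8 and 14.1% of all genes were. PTPN2, a phosphatase, fell by 0.56 in clone 2 (adjusted p = 0.0201), and CD2AP, an endocytic adaptor, rose (0.51, adjusted p = 0.0452). EPN1, an endocytic adaptor of clathrin pits, rose in clone 2 (0.51, adjusted p = 0.0483) and fell by 0.56 in clone 1 (adjusted p = 0.0372), with a tested difference of 1.07 between the clones (adjusted p = 0.000123, and 0.0687 with the mitochondrial covariate). PTPN1 and SH3KBP1 fell in clone 1 by 0.66 and 0.55 (adjusted p = 0.0337 and 0.0390). ERRFI1, the inducible EGFR inhibitor MIG6, had 0.24 in clone 2 and 0.27 in clone 1 with no call (adjusted p = 0.580 and 0.545). The clone 2 calls of PTPN2, CD2AP and EPN1 were made in 6, 2 and 1 of 9 leave-one-out fits, and none held with the mitochondrial covariate (adjusted p = 0.178, 0.235 and 0.548). EPN1, PTPN1 and SH3KBP1 were called lower in clone 1 in 4, 4 and 5 of those fits, and lost their calls with that covariate (adjusted p of 0.0581, 0.0707 and 0.0655).

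Transcripts known to be induced through EGFR and ERK were counted in the same way. Of 22 tested, 1 rose and 0 fell in clone 2 (list median 0.12), and 2 rose and 0 fell in clone 1 (list median −0.10), where 3.21 and 1.41% of all genes rose. CCND1, which encodes cyclin D1, rose in clone 2 (0.58, SE 0.16, adjusted p = 0.0463), and the feedback inhibitors SPRY2 and SPRY4 rose in clone 1 (0.49 and 0.49, adjusted p = 0.0452 and 0.0470). They were called in 3, 3 and 2 of 9 leave-one-out fits, and not with the mitochondrial covariate (adjusted p = 0.568, 0.0734 and 0.0895). With the replicate block 2 rose in clone 2, and 4 rose and 1 fell in clone 1. Between the clones 9 were higher in clone 2 and 3 lower with the block. None was lower in clone 2 at an unadjusted p under 0.05, in DESeq2 or in limma-voom, while 3, 1 and 1 were higher. In clone 1 the lower counts were 3, 1 and 0 and the higher counts 4, 3 and 2. DUSP6, the ERK phosphatase gene, had 0.02 in clone 2 and −0.02 in clone 1 (adjusted p = 0.972 and 0.965), and EGR1 had 0.09 in both (adjusted p = 0.896 and 0.888). Between the clones 8 of 22 were higher in clone 2 and 1 lower, where 19.8 and 14.1% of all genes were. With the mitochondrial covariate 0 of these 9 calls passed (CCND1 adjusted p = 0.109, SPRY2 0.277).

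The genes whose log2 CPM followed EREG, AREG, BTC, EGF and TGFA most closely over the 9 libraries, among those with a mean of at least 5 CPM, were found by Pearson's r and are given as a description. They were CLDND1, S100A4 and SCOC for EREG (r = 0.98, 0.97 and 0.97) and TMSB4X, UBE2E1 and UPP1 for AREG (0.99, 0.98 and 0.97). For BTC they were SCOC, CLEC11A and NIPSNAP3A (0.97, 0.96 and 0.96), for EGF DGKG, MANEA and CRADD (0.98, 0.97 and 0.97) and for TGFA MBD4, C8orf37 and MILR1 (0.96 each). The 9 libraries fall into 3 groups and differ in RNA composition, and these r values share both.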

How the data were processed

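RNA sequencing of 9 libraries was used, 3 each of JAG1 knockout clone 2, JAG1 knockout clone 1 and wild type. Deposited by the authors were 2 tables of raw gene counts, which share the wild-type columns, which were identical (3 of 3) and used once. Gene length came from the same tables. The build was GRCh38, and the tools listed were DESeq2, STAR, Subread and featureCounts, per the submitters' processing notes. Their versions, the annotation release and the strand setting were not given in those notes or in other sources used here. Counts were fitted with edgeR 4.0.16 in R 4.3.3: TMM factors, filterByExpr with a minimum count of 10 (16921 genes), a robust quasi-likelihood fit of 3 groups with 6 residual degrees of freedom, and p-values adjusted over all tested genes. Standard errors were taken from the log2 fold change and F. The fit was tested on simulated counts. Alternatives used limma 3.58.1 and DESeq2 1.42.0. GC content came from GENCODE release 29 for 86.7% of tested genes.

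The members and lists were chosen with earlier results of these data known. All members were named, with up to 3 called genes per list, direction and comparison with wild type by the smallest adjusted p, and 3 genes most alike per called member. The genes most alike to HBEGF, and 1 blood marker by name, are not reported here. A few more were chosen after their values were seen: ADAM17, ERRFI1, DUSP6, EGR1, CXCL8, CXCL1, PARM1, MTHFD2L, MIEN1, PGAP3, STAT3, VAV2, PLCG1, VIM, MSN and S100A4. Replicate numbers paired clone 2 with wild type, as a hint from the data and not the labels: deviations from the group means correlated at 0.366, 0.405 and 0.376 for equal numbers. They did not pair clone 1 with wild type (0.397, 0.123 and −0.168) or the clones with each other (0.321, −0.0227 and 0.0226). Promoters came from RefSeq (GRCh38.p14). Replicates differed by 17.4 to 61.9 in chi-square per gene, so none was a duplicate.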

Additional observations from a re-analysis of the deposited data

Results flagged for a closer look

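Levels of 5 genes differed between the knockout clones, by the direct edgeR test of clone 2 against clone 1. Each clone stands for 1 line, so an effect of JAG1 loss cannot be told apart from other differences between lines. The difference on the log2 scale was −1.65 for EREG, −1.60 for AREG, −1.72 for BTC, −0.61 for TGFA and −1.93 for EGF, with adjusted p of 9.04e-05 to 0.0273, and 3 of 3 clone 2 libraries were below all 3 clone 1 libraries for each. Of all tested genes, 33.9% differed between the clones, 14.1% being lower in clone 2. For 21.6% of all tested genes every clone 2 library was below every clone 1 library, and for 47.4% the clones did not overlap in either direction. With the mitochondrial share as a covariate 0 of these 5 differences passed, and EREG had −1.12 (adjusted p = 0.0881). Libraries of clone 2 had 0.950 to 1.94% of counts from mitochondrially encoded genes, and those of clone 1 had 2.48 to 5.30%. These ranges did not overlap, so the fit with the covariate cannot tell mitochondrial share and clone apart.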

How the results depend on the processing

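Leaving out 1 library at a time, 1 to 4 members were called lower and 0 to 1 higher in clone 2 against wild type, 0 to 1 higher in clone 1, and 3 to 5 lower between the clones. Clone 2 called 1 lower member when its replicate 3 was omitted and 2 when wild-type replicate 2 was, and 1 higher (HBEGF) when wild-type replicate 3 was. Between the clones 3 were called with clone 1 replicate 2 omitted. Over all genes the calls were 237 to 1584 for clone 2 (1008 from all 9 libraries), 200 to 1301 for clone 1 (933), and 3639 to 5782 between the clones (5733). The count for clone 2 moved by over 1.5 times without clone 2 replicate 3 (237), clone 1 replicate 2 (598) or wild-type replicate 1, 2 or 3 (297, 238 and 1584), that for clone 1 without clone 1 replicate 1, 2 or 3 (383, 330 and 200) or wild-type replicate 2 or 3 (436 and 278), and that between the clones without clone 2 or clone 1 replicate 3 (3639 and 3778). DESeq2, limma-voom, the GC and length correction, and that correction with the replicate block each added 1 higher member (HBEGF) in clone 2. The replicate block added 2 (HBEGF and EGFR), and 2 also in a fit of the 6 libraries compared. TGFA was called lower in clone 2 without a filter on low counts and with the block, alone, in 6 libraries or with the GC and length correction, for 5 lower members. The block changed no other call of a member in clone 2. Between the clones, whose numbers showed no such correlation throughout, it called 2 higher members (EGFR and ERBB3). For clone 2 and clone 1 against wild type, the calls over all genes were 1663 and 1512 without a filter, 1818 and 1479 in DESeq2, 2699 and 2322 with the block, 4320 and 1900 with the block in 6 libraries, and 2668 and 2223 with the block and the GC and length correction. For clone 2 there were 416 in the fit of 6 libraries. The mitochondrial covariate, chosen after the data were seen, left 0 lower members in clone 2 against wild type (83 genes in all) and 0 between the clones (370). With the block it left 1 (104) and 0 (164).

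Directions turned only for members without a call. With upper-quartile factors, which moved the median of all genes by −0.16 between the clones, NRG1 and ERBB2 had log2 fold changes of −0.040 and −0.019 in clone 2 against wild type. With the GC and length correction they had −0.054 and −0.057 (−0.043 and −0.056 with the block), and −0.017 and −0.023 between the clones (−0.031 and −0.024 with the block). With the mitochondrial covariate, EREG, TGFA and NRG1 had −0.061, −0.011 and 0.0097 in clone 1 (EREG −0.0026 with the block). NRG1 had −0.21 in clone 2 and −0.22 between the clones (−0.14 and −0.12 with the block), and EGFR had −0.12 between the clones. Without 1 library, log2 fold changes in clone 1 ran from −0.023 to 0.34 for EREG, −0.31 to 0.33 for AREG, −0.54 to 0.15 for BTC, −0.046 to 0.32 for TGFA, −0.028 to 0.41 for EGF, −0.29 to 0.018 for NRG1 and −0.073 to 0.20 for EGFR, and from −0.16 to 0.15 for NRG1 in clone 2. Higher genes were 53.9% of clone 2 calls and 25.6% of clone 1 calls, and 35.7 and 38.3% with upper-quartile factors. The causes of these moves were not tested.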
